A study of Mus musculus with 12 samples.

Results

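The retinoid enzymes and binding proteins examined here were 9 genes, Crabp1, Crabp2, Rbp4, Aldh1a1, Aldh1a2, Aldh1a3, Aldh1a7, Cyp26a1 and Cyp26b1, of 19938 genes with a probe set of their own. They were a list of names, and each was read through its only probe set with that single symbol. All 9 lay above the filter that removed the dimmest 25% of genes by mean signal, so all were among the 14953 genes tested. Whole-transcript arrays with 1 colour measured total RNA of mouse D3 embryonic stem cell cultures at day 16 of neuronal differentiation, 3 biological replicates in each of 4 groups. The siPRMT1 and siPRMT8 groups were D3 lines with a knockdown of the arginine methyltransferases PRMT1 or PRMT8, siSCR was a D3 line into which a scrambled sequence had been brought, and D3 was the unmodified line. Per the labels, all groups were differentiated alike through embryoid bodies without LIF, the cytokine that holds mouse stem cells undifferentiated. No other treatment is named, and whether retinoic acid was given is not stated. The labels name 1 culture of stem cells per group and do not say whether it was a clone or a pool, so the history of a line and its knockdown cannot be told apart. They call the replicates biological without saying how they were obtained, and the p-values here rest on the scatter of 3 arrays per group.

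Retinoic acid is made from vitamin A in 2 oxidation steps, from retinol to retinaldehyde and then to the acid. RBP4 carries retinol outside cells, and ALDH1A1, ALDH1A2 and ALDH1A3 catalyse the second step. CRABP1 and CRABP2 bind the acid in the cytoplasm, and the CYP26 enzymes degrade it. In the embryo the balance of ALDH1A synthesis and CYP26 clearance patterns the hindbrain and spinal cord, and CRABP2 hands the acid to nuclear receptors. The differentiation protocol that the labels cite uses retinoic acid on embryoid bodies as published. The labels do not state whether or when it was given to these cultures.

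Stretches of 3 promoters are shown first. RefSeq windows from 250 bases before to 50 bases after a start (GRCm38.p6) were found for 7 of the 9 genes, in 9 windows, and Crabp2 and Aldh1a3 were not matched. The Cyp26a1 stretch is shown because it holds a direct repeat of the half-site bound by retinoic acid receptors, and the pair of Aldh1a stretches because Aldh1a1 and Aldh1a7 are close paralogs. Capitals mark the repeat in Cyp26a1 (chr19:37697770-37697798, plus strand), and the bases that differ within the pair in Aldh1a1 (chr19:20601868-20601967, plus strand) and Aldh1a7 (chr19:20727557-20727656, minus strand).
Cyp26a1: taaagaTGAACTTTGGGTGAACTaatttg
Aldh1a1: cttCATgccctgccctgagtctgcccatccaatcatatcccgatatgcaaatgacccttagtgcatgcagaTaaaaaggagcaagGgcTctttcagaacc
Aldh1a7: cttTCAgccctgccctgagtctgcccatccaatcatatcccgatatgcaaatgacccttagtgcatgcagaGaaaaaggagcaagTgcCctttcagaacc
Read on the other strand, the Cyp26a1 repeat is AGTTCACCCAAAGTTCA, that is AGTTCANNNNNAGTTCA, which 8 of 32851 windows of 300 bases held on either strand (0.0244%). Any 2 half-sites in 1 orientation, each being AGGTCA or AGTTCA or GGTTCA or GGGTCA, 5 bases apart, stood in 32 windows (0.0974%), and among the members in Cyp26a1 only. With a spacing of 2 bases 88 windows held such a repeat (0.268%) and with a spacing of 1 base 73 did (0.222%), none of them a member's. A match describes letters and not a bound site. Over the 100 bases before the start, Aldh1a7 and the downstream of 2 annotated Aldh1a1 starts shared 94, and this start was shown because it was the more alike (30 for the upstream one). Signal from 1 of these paralogs on the other's probe set was not tested, so values of Aldh1a1 and Aldh1a7 are less certain than those of the other members.

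Differences were fitted with limma in 1 model of the 4 groups over all tested genes, calls were made at a Benjamini-Hochberg adjusted p under 0.05, and a gene is said to have risen or fallen where it passed. The targeted genes were read first as a check of the labels. Prmt1 read 7.72, 7.95 and 7.59 on the log2 scale in siPRMT1, 9.27, 9.20 and 9.27 in siPRMT8, 8.84, 8.74 and 8.86 in siSCR and 8.69, 8.86 and 8.71 in D3, so it was lowest in the line labelled as its knockdown. Prmt8 averaged 6.35 in siPRMT8, 6.64 in siPRMT1, 6.96 in siSCR and 7.39 in D3, and its fall in siPRMT8 against siSCR (log2 -0.61, limma adjusted p = 0.0171) was lost without siSCR replicate 2 or 3 or siPRMT8 replicate 2 (adjusted p = 0.0599 to 0.0728). Prmt8 also fell in siPRMT1 against D3 (log2 -0.75, adjusted p = 0.00488), and siPRMT1 minus siPRMT8 was 0.29 (95% interval -0.06 to 0.63, adjusted p = 0.489), so Prmt8 does not single out the line labelled as its knockdown. The mean log2 signal of 13 of 13 neuronal markers lay at 8.29 to 8.61 in siPRMT1, 8.51 to 8.70 in siPRMT8, 8.49 to 9.60 in siSCR and 9.56 to 9.69 in D3, with siSCR replicate 1 the low siSCR array. That array also stood apart on the first principal component (0.105, against -26.2 and -22.2 in the other siSCR arrays). The mean log2 signal of 9 of 9 pluripotency markers lay at 9.35 to 10.43 in siPRMT1, 9.77 to 10.10 in siPRMT8, 10.05 to 10.29 in siSCR and 9.80 to 9.93 in D3. Of these 9 only Pou5f1 was called in a knockdown line, higher than D3 in siPRMT1 (0.66) and siPRMT8 (0.54), and 0 were called against siSCR with limma (0 at an unadjusted p under 0.05). These counts depended on siPRMT1 replicate 2, the low siPRMT1 array (9.35, against 10.43 and 10.20). Without it 5 of the 9 were called in siPRMT1 against D3. Against siSCR 2 were then called in siPRMT1 and 3 in siPRMT8. In siPRMT8 against siSCR the 9 log2 differences lay between -0.53 and 0.04 (median -0.29). Leaving out a siPRMT1 array does not change these differences. Each array read a whole culture, so fewer cells of a type and less RNA per cell cannot be told apart. There was no detection call, and signals of different probe sets were not compared.

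**Figure D1:**
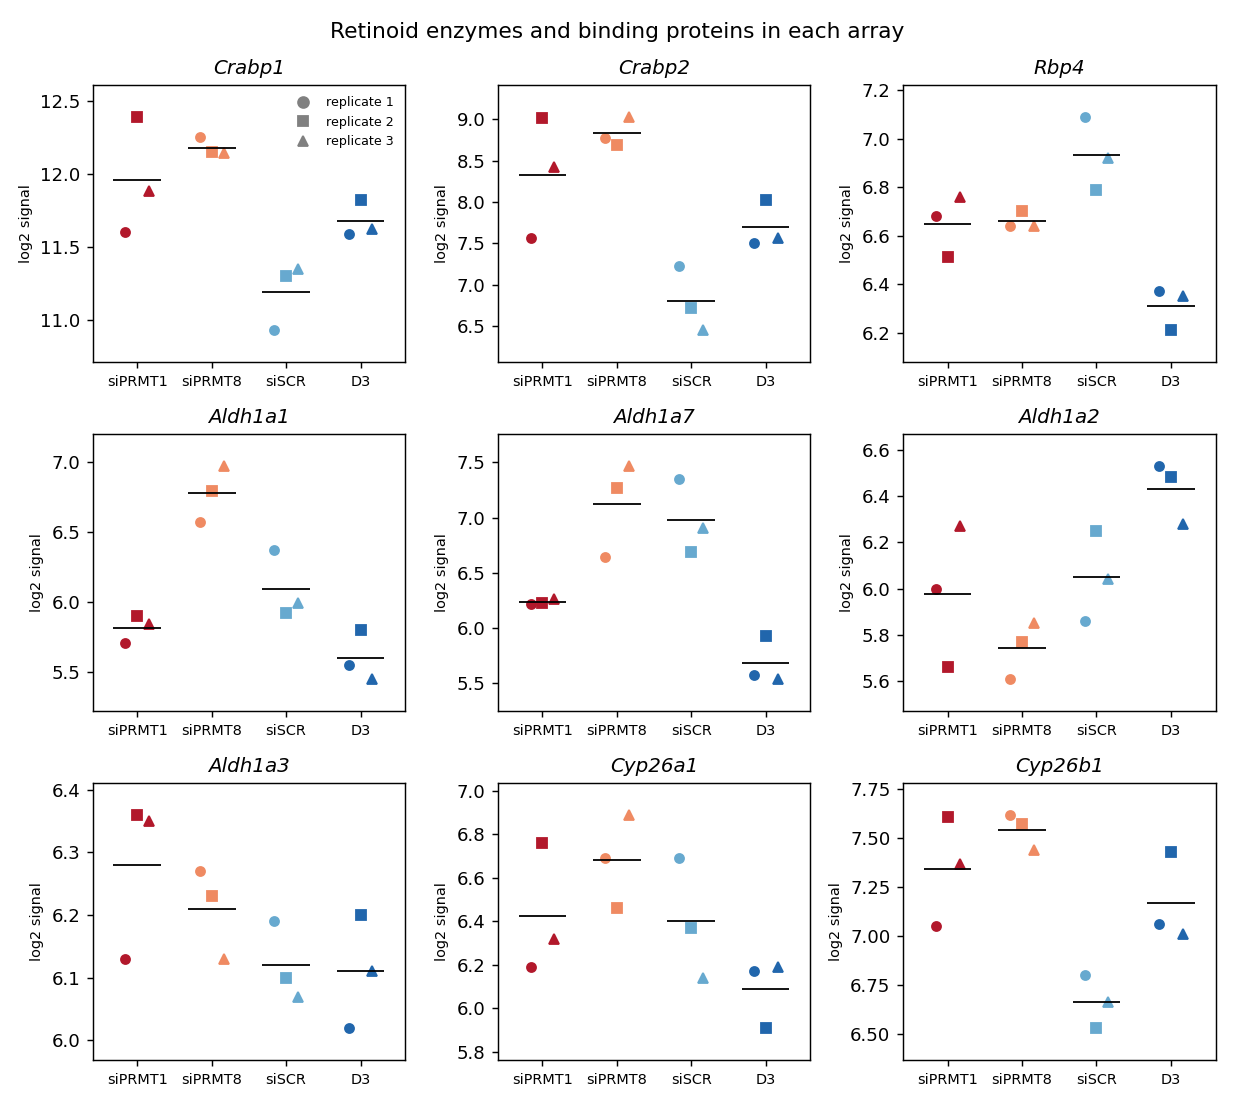
Log2 signal of each of the 9 genes (vertical axes, scaled per gene) in the 12 arrays, by group (horizontal axes). Points are single arrays, their shapes the replicate numbers, and black lines group means. Crabp2 and Cyp26b1 are lowest in siSCR, Rbp4 is highest in siSCR and lowest in D3, and Aldh1a1 is highest in siPRMT8.

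Crabp1 and Crabp2, the cytoplasmic retinoic acid binding proteins, rose in both knockdown lines against siSCR. Crabp2 read 7.56, 9.02 and 8.42 in siPRMT1, 8.78, 8.69 and 9.03 in siPRMT8, 7.23, 6.72 and 6.45 in siSCR and 7.51, 8.03 and 7.56 in D3. Every knockdown array was above every siSCR array, and siPRMT1 replicate 1 lay among the D3 arrays. Against siSCR Crabp2 rose 2.90-fold in siPRMT1 (log2 1.53, SE 0.307, adjusted p = 0.00658) and 4.10-fold in siPRMT8 (log2 2.04, SE 0.307, adjusted p = 0.00154), which ranked 5 from the highest of 14953 log2 differences in each comparison. Against D3 it rose 2.20-fold in siPRMT8 (log2 1.14, SE 0.307, adjusted p = 0.0173), while siPRMT1 lay 0.64 higher without passing (95% interval -0.04 to 1.31, adjusted p = 0.145). The siPRMT8 call against D3 was lost without D3 replicate 1 (adjusted p = 0.066), D3 replicate 3 (0.0616) or siPRMT8 replicate 3 (0.0675), and without siPRMT1 replicate 1 the siPRMT1 difference passed (log2 1.02, adjusted p = 0.0135). The siPRMT1 call against siSCR was lost with only the 2 groups compared (adjusted p = 0.0661).

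Crabp1 read 11.60, 12.39 and 11.88 in siPRMT1, 12.25, 12.15 and 12.14 in siPRMT8, 10.93, 11.30 and 11.35 in siSCR and 11.59, 11.82 and 11.62 in D3. The siSCR arrays were the lowest of the 12, and the siPRMT8 arrays varied least (SD 0.0597, against 0.40 in siPRMT1, 0.225 in siSCR and 0.127 in D3, n = 3 each). Against siSCR it rose 1.70-fold in siPRMT1 (log2 0.76, SE 0.169, adjusted p = 0.0106) and 1.98-fold in siPRMT8 (log2 0.99, SE 0.169, adjusted p = 0.00265). Against D3 the siPRMT1 difference of 0.28 did not pass (95% interval -0.09 to 0.65, adjusted p = 0.239). In siPRMT8 Crabp1 rose 1.42-fold against D3 (log2 0.50, SE 0.169, adjusted p = 0.0451), a call that held in 3 of 12 fits that each left out 1 array (without siSCR replicate 1, siPRMT1 replicate 1 or siPRMT1 replicate 2) and was lost in the other 9 (adjusted p over all 12 from 0.006 to 0.136). It was lost under quantile normalisation too (log2 0.46, adjusted p = 0.0823) and without the filter on dim genes (adjusted p = 0.056). The siPRMT1 call of Crabp1 against siSCR was lost with only the 2 groups compared (adjusted p = 0.0893).

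Rbp4, the carrier of retinol in plasma, changed in opposite directions against the 2 control lines. It read 6.68, 6.51 and 6.76 in siPRMT1, 6.64, 6.70 and 6.64 in siPRMT8, 7.09, 6.79 and 6.92 in siSCR and 6.37, 6.21 and 6.35 in D3. All siSCR arrays were above all knockdown arrays, and all knockdown arrays were above all D3 arrays. Set against siSCR it fell by 0.29 in siPRMT1 (1.22-fold, SE 0.0865, adjusted p = 0.0398), and the fall in siPRMT8 was 1.20-fold (log2 -0.27, adjusted p = 0.0432). Set against D3 it rose 1.27-fold in siPRMT1 (log2 0.34, adjusted p = 0.0138) and 1.28-fold in siPRMT8 (log2 0.36, adjusted p = 0.0102). The knockdown lines themselves differed by -0.02 (siPRMT1 minus siPRMT8, 95% interval -0.21 to 0.17, adjusted p = 0.956).

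The 2 falls of Rbp4 against siSCR were close to the threshold. In siPRMT1 the call held in 3 of the 12 fits without 1 array, those without D3 replicate 2, siSCR replicate 2 or siPRMT1 replicate 3 (adjusted p over all 12 from 0.0339 to 0.102). In siPRMT8 it held in 4 of 12, without siSCR replicate 2 or any 1 siPRMT1 replicate (0.021 to 0.121). Neither passed without the filter on dim genes (adjusted p = 0.0548 in siPRMT1 and 0.0597 in siPRMT8) or with only the 2 groups compared (0.169 and 0.0602), and the siPRMT8 call was also lost under quantile normalisation (0.0511). The rise against D3 in siPRMT1 was lost without D3 replicate 2 (0.0616) or siPRMT1 replicate 3 (0.0576), and in siPRMT8 it held in all 12 (0.00435 to 0.0457). Of the liver and endoderm markers, which are made where Rbp4 is abundant, 13 of 14 were measured, with a mean log2 signal of 6.79 to 6.87 in siPRMT1, 6.66 to 6.80 in siPRMT8, 6.66 to 6.81 in siSCR and 6.68 to 6.71 in D3. Alb, for albumin, lay below the filter (group means 4.16 to 4.27), as did Afp (5.21 to 5.35), and Ttr, the plasma partner of RBP4, did not pass in any of the 6 comparisons. Of the 10 markers tested, siPRMT1 had 2 higher and 0 lower than D3 (0 called without D3 replicate 2), and 2 higher and 1 lower than siSCR. In siPRMT8 1 was lower than D3 (0 without D3 replicate 1) and 0 were called against siSCR. Over all genes 26.4%, 18.7%, 27.7% and 23.8% were called in the same order. The part of such cells in the Rbp4 result was not tested.

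Aldh1a1, which oxidises retinaldehyde to retinoic acid, rose in the siPRMT8 line. It read 5.71, 5.90 and 5.84 in siPRMT1, 6.57, 6.79 and 6.97 in siPRMT8, 6.37, 5.92 and 5.99 in siSCR and 5.55, 5.80 and 5.45 in D3. Each siPRMT8 array was above each of the other 9 arrays. Aldh1a1 rose 1.61-fold in siPRMT8 against siSCR (log2 0.69, SE 0.135, adjusted p = 0.00487) and 2.27-fold against D3 (log2 1.18, SE 0.135, adjusted p = 0.000429), and both calls held in all 12 fits without 1 array. In siPRMT1 it lay 0.28 below siSCR (log2 -0.28, 95% interval -0.57 to 0.02, adjusted p = 0.172) and 0.22 above D3 (95% interval -0.08 to 0.51, adjusted p = 0.25).

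Aldh1a7, a rodent paralog of Aldh1a1, was high in siPRMT8 and siSCR. It read 6.22, 6.23 and 6.26 in siPRMT1, 6.64, 7.27 and 7.47 in siPRMT8, 7.35, 6.69 and 6.91 in siSCR and 5.58, 5.93 and 5.54 in D3. The siPRMT1 arrays lay between D3 and siSCR with no overlap on either side, whereas siPRMT8 and siSCR overlapped. Against D3 it rose 2.72-fold in siPRMT8 (log2 1.45, SE 0.206, adjusted p = 0.000789), ranking 14 from the highest of 14953, and lay 0.55 higher in siPRMT1 (adjusted p = 0.0675). The siPRMT1 difference from D3 passed without siSCR replicate 1 (0.0402) or siPRMT8 replicate 1 (0.0265), and with only the 2 groups compared (0.0105). Against siSCR it fell by 0.75 in siPRMT1 (SE 0.206, adjusted p = 0.0269), and siPRMT8 differed by 0.15 (95% interval -0.30 to 0.60, adjusted p = 0.653). The fall in siPRMT1 was lost without siSCR replicate 1 (log2 -0.56, adjusted p = 0.065), siSCR replicate 3 (0.0686), siPRMT1 replicate 1 (0.0574) or siPRMT1 replicate 3 (0.0669). It was lost too with only the 2 groups compared (0.0559).

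Aldh1a2, the main retinoic acid synthesising enzyme of the early embryo, fell in both knockdown lines against D3. It read 6.0, 5.66 and 6.27 in siPRMT1, 5.61, 5.77 and 5.85 in siPRMT8, 5.86, 6.25 and 6.04 in siSCR and 6.53, 6.48 and 6.28 in D3. The D3 arrays were the highest 3 of the 12, by a narrow margin over siPRMT1 replicate 3. Against D3 it fell by 0.69 in siPRMT8 (1.61-fold, SE 0.145, adjusted p = 0.00497), which held in all 12 fits, and by 0.46 in siPRMT1 (1.37-fold, SE 0.145, adjusted p = 0.0375). The siPRMT1 call held in 6 of the 12 (adjusted p from 0.0128 to 0.121) and was lost without D3 replicate 1 or 2, siSCR replicate 3, siPRMT1 replicate 1, siPRMT8 replicate 2, or siPRMT1 replicate 2, where the difference was -0.30. It was lost too with only the 2 groups compared (0.0731) and with the replicate number as a block (0.0569). Against siSCR neither difference passed (log2 -0.07, adjusted p = 0.75 in siPRMT1 and log2 -0.31, adjusted p = 0.15 in siPRMT8). Markers of mesenchyme and meninges, where Aldh1a2 is expressed in the embryo, had a mean log2 signal of 6.73 to 7.03 in siPRMT1, 6.80 to 7.01 in siPRMT8, 7.15 to 7.22 in siSCR and 7.14 to 7.20 in D3 (12 of 12 measured). Their part in the Aldh1a2 result was not tested.

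Aldh1a3, the third retinaldehyde dehydrogenase of this family, passed in none of the 6 comparisons with limma, and only siPRMT1 against D3 had an unadjusted p under 0.05 (1 of 6). Its group means were 6.28 in siPRMT1, 6.21 in siPRMT8, 6.12 in siSCR and 6.11 in D3, and the 12 arrays spanned 6.02 to 6.36. The largest of its differences, siPRMT1 minus D3, was 0.17 with a 95% interval of 0 to 0.34 (adjusted p = 0.118), and it passed without siPRMT1 replicate 1 (log2 0.25, adjusted p = 0.0353).

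Cyp26b1, which degrades retinoic acid, moved against siSCR as the Crabp genes did. It read 7.05, 7.61 and 7.37 in siPRMT1, 7.62, 7.57 and 7.44 in siPRMT8, 6.80, 6.53 and 6.66 in siSCR and 7.06, 7.43 and 7.01 in D3. The siSCR arrays were the lowest 3, and D3 overlapped with siPRMT1 but not with siPRMT8. Against siSCR it rose 1.60-fold in siPRMT1 (log2 0.68, SE 0.143, adjusted p = 0.00816) and 1.84-fold in siPRMT8 (log2 0.88, SE 0.143, adjusted p = 0.00212), and both calls held in all 12 fits without 1 array. The siPRMT1 call was lost with only the 2 groups compared (adjusted p = 0.0578). Against D3 the differences were 0.17 in siPRMT1 (95% interval -0.14 to 0.49, adjusted p = 0.378) and 0.38 in siPRMT8 (95% interval 0.06 to 0.69, adjusted p = 0.0719). The siPRMT8 difference passed without D3 replicate 2 (log2 0.51, adjusted p = 0.0295), siPRMT1 replicate 1 (0.0354) or siPRMT1 replicate 2 (0.0328), and with only the 2 groups compared (0.0217).

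Cyp26a1, the family member whose promoter repeat is printed above and which retinoic acid is known to induce, rose in siPRMT8 against D3. It read 6.19, 6.76 and 6.32 in siPRMT1, 6.69, 6.46 and 6.89 in siPRMT8, 6.69, 6.37 and 6.14 in siSCR and 6.17, 5.91 and 6.19 in D3. The siSCR arrays overlapped with those of every other group, and siPRMT1 replicate 1 was level with D3 replicate 3 to 2 decimals. The rise in siPRMT8 over D3 was 1.51-fold (log2 0.59, SE 0.171, adjusted p = 0.0235) and was lost without D3 replicate 1 (0.0506), D3 replicate 2 (0.0891), siPRMT8 replicate 1 (0.0638) or siPRMT8 replicate 3 (0.0974). Against siSCR Cyp26a1 differed by 0.03 in siPRMT1 (95% interval -0.35 to 0.40) and by 0.28 in siPRMT8 (95% interval -0.09 to 0.65), and neither passed.

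**Figure D2:**
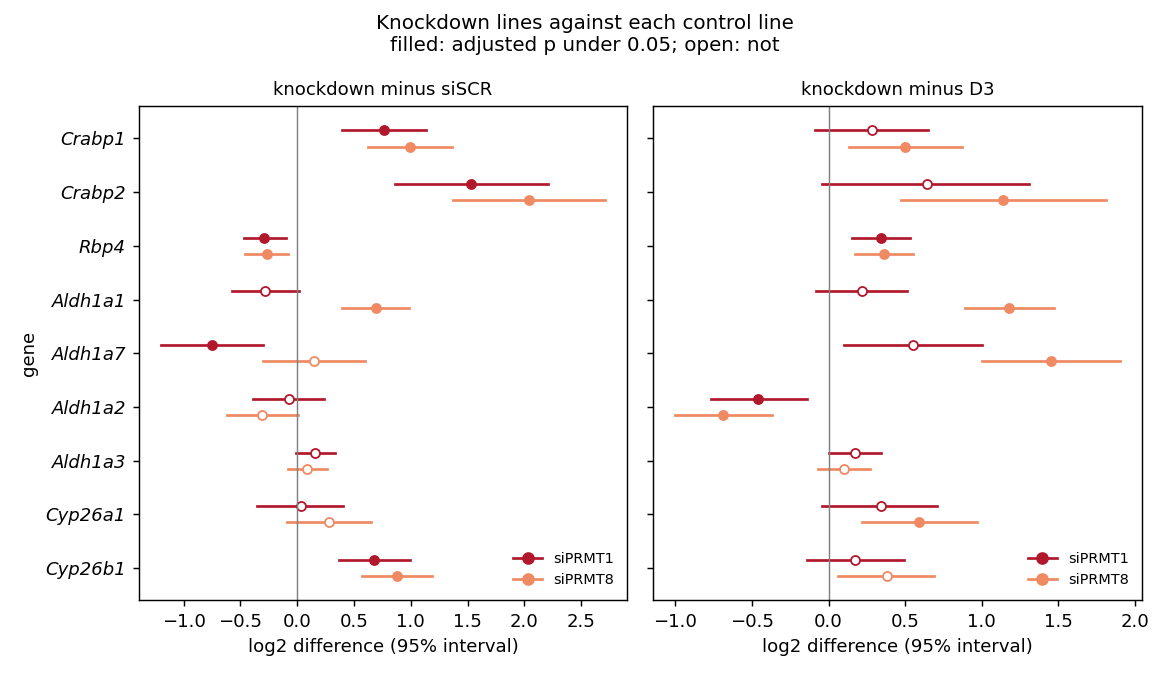
Log2 differences of the 9 genes (horizontal axes), knockdown minus siSCR on the left and knockdown minus D3 on the right, with limma's 95% intervals, siPRMT1 in dark red and siPRMT8 in orange. Filled points passed an adjusted p of 0.05. Rbp4 lies below 0 on the left and above 0 on the right in both lines, and Crabp2 in siPRMT8 reaches 2.04 on the left and 1.14 on the right.

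Counted over the 9 genes, both knockdown lines held rises and falls against siSCR. In siPRMT1 against siSCR 3 of 9 rose and 2 fell, where 18.7% of all genes tested changed, 7.18% higher and 11.6% lower. The arrays of the 2 groups did not overlap for 3 members higher and 3 lower in siPRMT1, where this held for 30% of all genes (15.2% higher and 14.8% lower). The median log2 difference was 0.03 over the members and 0.036 over all genes, since the members moved both ways. In siPRMT8 against siSCR 4 rose (Aldh1a1, Crabp1, Crabp2 and Cyp26b1) and 1 fell (Rbp4), where 23.8% of all genes changed, 10.7% higher and 13.2% lower, with medians of 0.28 for the members and 0.012 for all genes. Arrays did not overlap for 4 members higher and 2 lower, where this held for 41.8% of all genes (20.6% higher and 21.2% lower). Both comparisons share the siSCR arrays. The 5 calls in siPRMT1 were 3 without siSCR replicate 1, siSCR replicate 3 or siPRMT1 replicate 1, with Crabp1, Crabp2 and Cyp26b1 still called in each, and 0 when only siPRMT1 and siSCR were fitted (adjusted p = 0.0893 for Crabp1, 0.0661 for Crabp2 and 0.0578 for Cyp26b1).

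Against D3 7 of the 9 genes were called in siPRMT8 and 2 in siPRMT1. In siPRMT8 6 of 9 rose and 1 fell, where 27.7% of all genes changed, 12.5% higher and 15.2% lower, and the median was 0.50 over the members and 0.028 over all genes. Arrays did not overlap for 7 members higher and 1 lower, where 52.6% of all genes did not (27.2% higher and 25.3% lower). In siPRMT1 1 rose and 1 fell, where 26.4% of all genes changed, 11.7% higher and 14.7% lower, and the median was 0.28 over the members and 0.051 over all genes. Arrays did not overlap for 3 members higher and 1 lower, where 44.2% of all genes did not (23.6% higher and 20.6% lower). These 2 comparisons share the D3 arrays. The count of 7 in siPRMT8 was 4 without D3 replicate 1 or siPRMT8 replicate 3. The count of 2 in siPRMT1 was 0 without D3 replicate 2 and 1 without D3 replicate 1, siSCR replicate 3, siPRMT1 replicate 2, siPRMT1 replicate 3 or siPRMT8 replicate 2.

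The knockdown lines were compared directly to see whether their retinoid genes differed. Of the 9 members Aldh1a1 alone passed, with 0 higher and 1 lower in siPRMT1, where 0.154% of all genes changed (0.0869% higher and 0.0669% lower). Aldh1a1 averaged 5.82 ± 0.0961 in siPRMT1 and 6.78 ± 0.202 in siPRMT8 (SD, n = 3 each), a fall of 1.95-fold (log2 -0.96, SE 0.135, adjusted p = 0.0214), which ranked 15 from the lowest of 14953. The call was lost without siPRMT1 replicate 1 (0.0862), siPRMT1 replicate 3 (0.0947), siPRMT8 replicate 2 (0.118) or siPRMT8 replicate 3 (0.14), while the log2 difference stayed within -1.07 to -0.87. It was lost too with the replicate number as a block (0.0687) and with only the 2 groups compared (0.111). Aldh1a7 averaged 6.24 ± 0.0169 in siPRMT1 and 7.13 ± 0.435 in siPRMT8 (SD, n = 3 each) and its arrays did not overlap either, but the difference of -0.89 did not pass (SE 0.206, adjusted p = 0.132). Arrays did not overlap for 15.8% of all genes, 8% higher and 7.82% lower in siPRMT1. For Crabp2 the difference was -0.50 with a 95% interval of -1.17 to 0.17, so a difference of up to 1.17 on the log2 scale was not resolved with 3 arrays per group.

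The unmodified and scrambled lines were compared to see how far the 2 controls differed in these genes. Aldh1a7 and Rbp4 rose in siSCR against D3, where 0.154% of all genes changed, 0.0602% higher and 0.0936% lower. Aldh1a7 rose 2.46-fold (log2 1.30, SE 0.206, adjusted p = 0.0395), ranking 7 from the highest of 14953, and Rbp4 1.54-fold (log2 0.62, SE 0.0865, adjusted p = 0.0261). With limma 0 members fell, although Crabp1 (-0.48), Crabp2 (-0.90), Cyp26b1 (-0.50) and Aldh1a2 (-0.38) lay lower in every siSCR array and had an unadjusted p under 0.05 (4 members), with adjusted p of 0.241 to 0.423. Aldh1a1 lay higher in every siSCR array without passing (log2 0.49, unadjusted p = 0.00338, adjusted p = 0.224). Arrays did not overlap for 3 members higher and 4 lower in siSCR, where this held for 20.3% of all genes, 10.7% higher and 9.56% lower in siSCR. With the replicate number as a block Rbp4 passed and Aldh1a7 did not (adjusted p = 0.0749), though no label says that the number pairs arrays.

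The calls between the control lines moved with single arrays. Aldh1a7 held in 3 of the 12 fits without 1 array (without siPRMT1 replicate 1, siPRMT1 replicate 2 or siPRMT8 replicate 1, adjusted p over all 12 from 0.0207 to 0.233). Rbp4 held in 7 of 12 and was lost without any 1 D3 replicate, siSCR replicate 3 or siPRMT8 replicate 3 (0.00993 to 0.137). In a fit that dropped siPRMT1 replicate 2 along with siSCR replicate 1, a choice made with the values known, Crabp2 fell in siSCR against D3 as well (log2 -1.11, adjusted p = 0.0399).

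**Figure D3:**
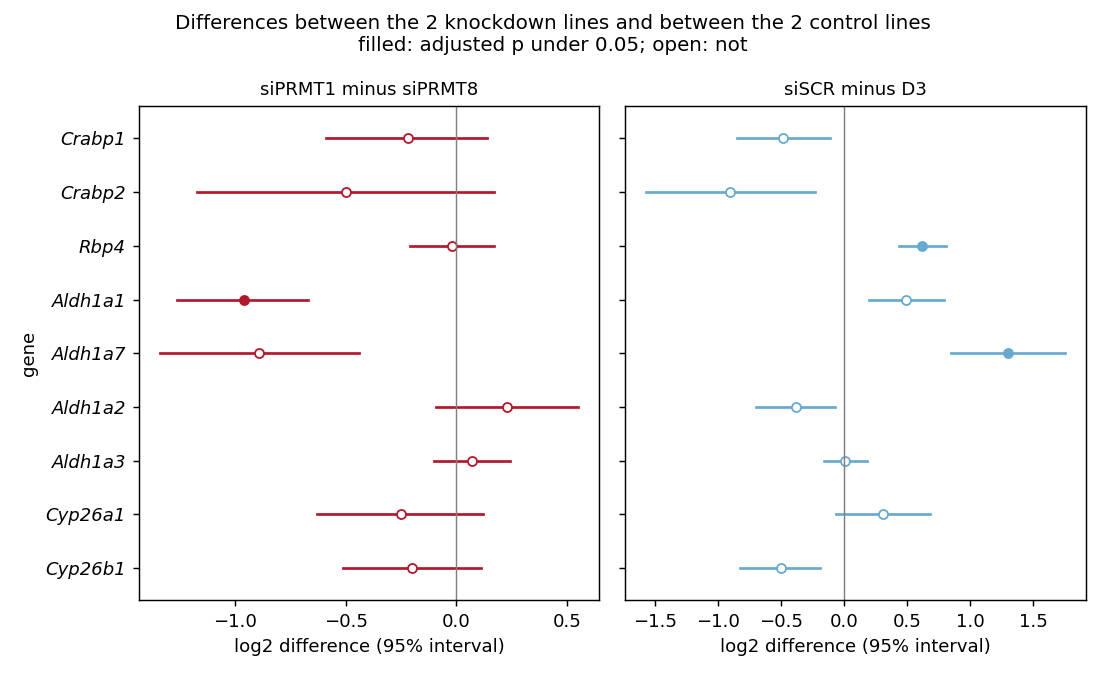
Log2 differences of the 9 genes (horizontal axes) with limma's 95% intervals, siPRMT1 minus siPRMT8 on the left and siSCR minus D3 on the right. Filled points passed an adjusted p of 0.05. On the left Aldh1a1 lies at -0.96, and on the right Aldh1a7 at 1.30 and Rbp4 at 0.62.

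The members were set in order of their group means. For Crabp2 the order was siPRMT8 (8.84), siPRMT1 (8.33), D3 (7.70) and siSCR (6.80), and no neighbouring pair in it passed (adjusted p = 0.546, 0.145 and 0.355). Crabp1 and Cyp26b1 had the same order of means, and no neighbouring pair of theirs passed. Aldh1a1 ran siPRMT8 (6.78), siSCR (6.09), siPRMT1 (5.82) and D3 (5.60), with the first step past the threshold (adjusted p = 0.00487) and the other two not. In Aldh1a7 the order was siPRMT8 (7.13), siSCR (6.98), siPRMT1 (6.24) and D3 (5.68), and the middle step passed (adjusted p = 0.0269). Rbp4 had siSCR first (6.93), then siPRMT8 (6.66), siPRMT1 (6.65) and D3 (6.31), with the first and last steps passing.

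Likeness between members and other genes was described by Pearson r over the 12 arrays, with r over the deviations from the group means beside it. These arrays share lines, so r is a description and carries no p. Within the members, Crabp2 and Cyp26b1 had r = 0.96 (0.82 for deviations), Aldh1a1 and Aldh1a7 had r = 0.88 (0.92), and Crabp1 and Rbp4 had r = -0.45 (-0.76). The gene most like Crabp2 and also the gene most like Cyp26b1 was Fndc3c1, at r = 0.974 for each (deviations 0.862 and 0.897). Crabp2 was next most like Igf2bp3 (0.968, deviations 0.951) and Cyp26b1 Sfrp2 (0.969, deviations 0.93), a secreted Wnt modulator. Crabp1 was most like Gli3 (0.966, deviations 0.90), a transcription factor of hedgehog signalling, Aldh1a1 most like Krt15 (0.954, deviations 0.843), and Aldh1a7 most like Dapl1 (0.97, deviations 0.838). For Aldh1a2 it was Ralgps2 (0.962, deviations 0.932), for Cyp26a1 Srsf9 (0.96, deviations 0.941), for Aldh1a3 Rhpn1 (0.95, deviations 0.942) and for Rbp4 Ceacam1 (0.917, deviations 0.559).

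Most genes of a list that retinoic acid is known to induce fell in both knockdown lines. Of 19 listed, 17 were measured and 16 tested, with Dhrs3, Stra6 and Rarb also standing in the lists below. The list leaves out the 9 members, so their changes are not counted. Among them Cyp26a1 rose in siPRMT8 against D3 (log2 0.59). Crabp2 (log2 1.53 and 2.04) and Cyp26b1 (0.68 and 0.88) rose against siSCR in siPRMT1 and siPRMT8. Of the 9 members 2 fell against siSCR in siPRMT1 and 1 in siPRMT8. Many of the falls were in Hox genes, with Hoxa3, Hoxa4, Hoxa5, Hoxb3, Hoxb4 and Hoxb5 called lower against siSCR in both lines. Hoxb1 (0.24 and 0.16) and Cdx1 (0.11 and 0.10) did not fall against siSCR in siPRMT1 and siPRMT8. In siPRMT1 against siSCR 0 rose and 11 fell, where 7.18% of all genes rose and 11.6% fell, with a median of -0.54 (0.036 over all genes). They included the Hox genes Hoxa5 (log2 -1.38, SE 0.196, adjusted p = 0.00144) and Hoxb5 (log2 -1.34, SE 0.141, adjusted p = 0.000377), which set position along the hindbrain and spinal cord, and Hoxb3 (-1.28). In siPRMT8 against siSCR 1 rose and 10 fell, where 10.7% of all genes rose and 13.2% fell, with a median of -0.35 (0.012 over all genes), led by Hoxa5 (-1.31), Hoxb5 (-1.27) and Tshz1 (-1.17). The gene that rose was Dhrs3 (log2 0.47, SE 0.124, adjusted p = 0.0195), a reductase that turns retinaldehyde back into retinol. Against D3 1 rose and 11 fell in each line, where 14.7% of all genes fell in siPRMT1 and 15.2% in siPRMT8, Dhrs3 being the riser (log2 0.62 in siPRMT1, adjusted p = 0.00396, and 0.85 in siPRMT8, adjusted p = 0.000894). In siSCR against D3 none passed with limma, and 2 were higher and 3 lower at an unadjusted p under 0.05. Many neuronal and astrocyte markers fell in the same comparisons. In siPRMT1 against siSCR 9 of 13 neuronal markers (median -0.95) and 6 of 7 astrocyte markers (median -1.18) were called lower, and 0 and 3 with only the 2 groups compared. In siPRMT8 against siSCR 7 of 13 (median -0.68) and 6 of 7 (median -1.16) were called lower. The neuronal count in siPRMT8 was 12 without siSCR replicate 1, 3 without siSCR replicate 3, and 4 without siSCR replicate 2, siPRMT8 replicate 1 or siPRMT8 replicate 3. Some markers went the other way. The astrocyte marker Gja1 was called higher in siPRMT1 and siPRMT8 against siSCR (0.71 and 0.77) and D3 (0.43 and 0.48). The neuronal marker Nefm was called higher in siPRMT8 against siSCR (1.08). Of 12 neural progenitor markers 1 was higher and 4 lower in siPRMT1 against siSCR, and 5 and 2 in siPRMT8. Without single arrays 3 to 6 and 4 to 8 of them were called. The part of all these markers in the fall of the retinoic acid induced genes was not tested.

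Among retinoid receptors and their cofactors, 10 of 12 were measured and tested. Rarb, a receptor gene that is itself induced by retinoic acid, fell in siPRMT1 against siSCR (log2 -0.64, SE 0.073, adjusted p = 0.000512) and against D3 (-0.38, adjusted p = 0.00314). In siPRMT8 Rarb fell against siSCR (-0.32, adjusted p = 0.00928) and differed by -0.06 from D3 (adjusted p = 0.564). Rara fell against siSCR in siPRMT1 (-0.47, adjusted p = 0.0181) and siPRMT8 (-0.44, adjusted p = 0.0206), and so did the coactivator Ncoa1 (-0.40 and -0.42), which gave 0 higher and 3 lower of 10 in each, where 11.6% and 13.2% of all genes fell in siPRMT1 and siPRMT8. With only siPRMT1 and siSCR fitted, 1 was called lower. Rarg rose against D3 in siPRMT1 (log2 0.74, SE 0.0939, adjusted p = 0.000458), in siPRMT8 (0.66, adjusted p = 0.000784) and in siSCR (0.58, adjusted p = 0.043), the last lost in 10 of 12 fits without 1 array. Against D3 the list had 1 higher and 2 lower in siPRMT1 (2 and 3 without siPRMT1 replicate 2) and 2 and 2 in siPRMT8. Of all genes 26.4% and 27.7% were called in these 2 comparisons. The siPRMT8 count was 1 and 1 without any 1 D3 replicate, any 1 siPRMT8 replicate or siPRMT1 replicate 3.

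Of 28 genes for retinol uptake, storage and oxidation 27 were measured and 18 tested. In siPRMT1 against siSCR 1 rose, the dehydrogenase/reductase Dhrs4 (0.26), and 2 fell, Stra6 (-0.40), the cell surface receptor for RBP4, and Rdh14 (-0.37). These 3 of 18 stand beside 18.7% of all genes called, and 0 were called with only siPRMT1 and siSCR fitted. In siPRMT8 against siSCR Dhrs3 and Dhrs4 (0.32) rose and Stra6 fell (-0.33, adjusted p = 0.00775), where 23.8% of all genes were called. Against D3 3 rose and 3 fell in siPRMT1 (2 and 1 without D3 replicate 3), while in siPRMT8 5 rose, led by Dhrs3 and the alcohol dehydrogenase Adh1 (0.58, adjusted p = 0.00627), and Stra6 fell (-0.22). These counts of 18 tested stand beside 26.4% and 27.7% of all genes called in siPRMT1 and siPRMT8. The siPRMT8 count against D3 was 3 and 0 without D3 replicate 1, D3 replicate 3 or siPRMT8 replicate 3. Rdh10, the main embryonic retinol dehydrogenase, passed in none of the 6 comparisons with limma. Cyp26c1, the third CYP26 enzyme, and Fabp5, which also binds retinoic acid, passed in none either. Without siPRMT1 replicate 2 both were called higher in siPRMT8 against D3, 1 was called higher in siPRMT8 against siSCR, and 1 was called lower in siPRMT1 against siSCR, D3 and siPRMT8. With only the 2 groups compared both were called higher in siPRMT8 against D3 and 1 against siSCR.

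The other aldehyde dehydrogenases were counted beside the Aldh1a members. Of 14 tested, 0 rose and 3 fell against siSCR in each knockdown line, where 18.7% and 23.8% of all genes were called in siPRMT1 and siPRMT8, so the count is near that over all genes. The 3 were the folate enzymes Aldh1l1 and Aldh1l2 and the GABA catabolic enzyme Aldh5a1. Aldh1l1, also an astrocyte marker, fell 2.30-fold in siPRMT1 (log2 -1.20, SE 0.204, adjusted p = 0.00321) and 2.23-fold in siPRMT8 (-1.16, adjusted p = 0.00298). The mean log2 signal of the 8 astrocyte markers, Aldh1l1 included, was 7.08 to 7.38 in siPRMT1, 7.15 to 7.49 in siPRMT8, 7.87 to 8.25 in siSCR and 8.03 to 8.05 in D3, and its part in these falls was not tested. Against D3 2 rose and 3 fell in siPRMT1 (0 and 3 without D3 replicate 3 or siPRMT1 replicate 3), and 1 rose and 3 fell in siPRMT8. Of all genes 26.4% and 27.7% were called against D3 in siPRMT1 and siPRMT8. The medians of this list lay at -0.02 and -0.14 against siSCR in siPRMT1 and siPRMT8.

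**Figure D4:**
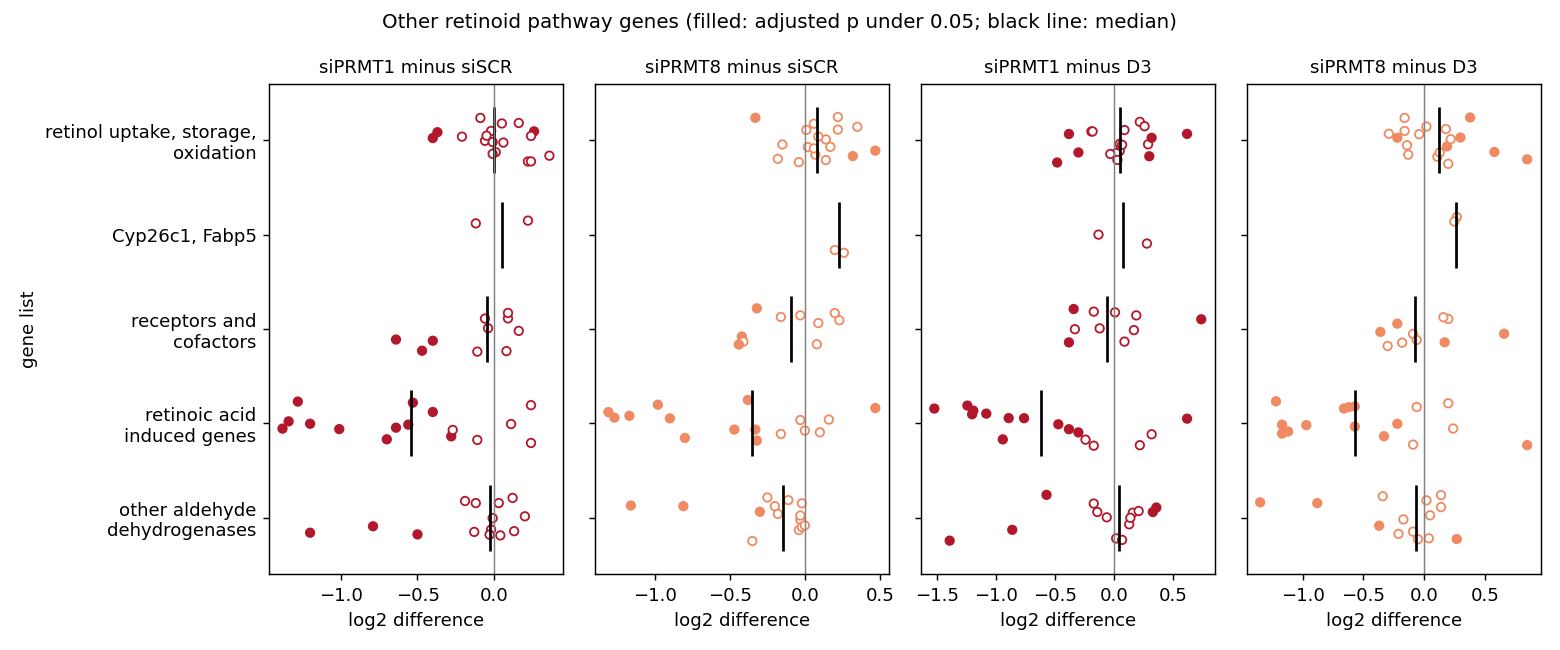
Log2 differences (horizontal axes) of tested retinoid pathway genes outside the 9 members in the 4 knockdown comparisons, by gene list (vertical axis). Points are genes, filled where the adjusted p was under 0.05, and black lines are list medians. Retinoic acid induced genes lie mostly below 0, with medians of -0.54, -0.35, -0.61 and -0.57 from left to right.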

How the data were processed

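Values on the log2 scale came from the authors' deposited table of 35556 probe sets by 12 arrays. Their range (0.97 to 13.54) is the basis for that scale, which no label states. How the authors corrected background, summarised probes and normalised arrays is not stated in the labels. Array medians differed by at most 0.023, and nothing was renormalised. Probe sets with 1 symbol in the platform's annotation (21789) were kept and symbols updated by gene ID (RefSeq, GRCm38.p6, 21698 matched). Of several probe sets per symbol the one with the highest mean was used, and the dimmest 25% of genes (mean below 5.43) were left out. The 14953 genes were fitted with limma 3.58.1 in R 4.3.3 (4 group means, all 12 arrays, Benjamini-Hochberg over all genes, threshold 0.05). Intervals are limma's and unadjusted for multiple testing. The script was tested on simulated data.

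The members and gene lists were chosen with earlier results of these data known. Named besides the members were Prmt1 and Prmt8, up to 3 higher and 3 lower passing genes of a pathway list in each comparison, and the genes most like each member. Rarb, Rarg, Rdh10, Ttr, Pou5f1, Alb, Afp, Hoxa3, Hoxa4, Hoxb1, Hoxb4, Cdx1, Cyp26c1 and Fabp5 were partly named outside that rule, for their roles. Replicate numbers recur in all groups. After group means were subtracted, arrays with the same number correlated over genes above 0.1 in all 3 pairs of siSCR and D3 (0.107 to 0.194). Over all groups 8 of 18 pairs did, and the siPRMT1 and D3 pairs reached 0.29, 0.267 and -0.0353. No r between arrays of different numbers is set beside these, and no label states a pairing. Whether the number pairs arrays of any 2 groups was therefore not settled.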

Additional observations from a re-analysis of the deposited data

Results flagged for a closer look

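Aldh1a1 was noted because it passed the direct test between the siPRMT1 and siPRMT8 lines. The difference siPRMT1 minus siPRMT8 was -0.96 on the log2 scale (limma, adjusted p = 0.0214), with all 3 siPRMT1 arrays below all 3 siPRMT8 arrays. It did not pass with the replicate block (adjusted p = 0.0687) or with only the 2 groups compared (0.111).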

How the results depend on the processing

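Each result was recomputed without the filter on dim genes, with quantile normalisation, with the mean of a symbol's probe sets, with only the 2 groups compared, with the replicate number as a block, without each array in turn and, chosen after seeing the data, without siSCR replicate 1 and siPRMT1 replicate 2 together. The cause of the changes was not tested. Only the 2 groups compared have 4 residual degrees of freedom. That fit gave 0 members and 357 genes in siPRMT1 against siSCR (5 and 2801), 0 members and 9 genes in siSCR against D3 (2 and 23), and 0 members and 2 genes in siPRMT1 against siPRMT8 (1 and 23). The calls did not fall away in every comparison. In siPRMT8 the same fit gave 4 members and 2937 genes against siSCR (5 and 3565) and 8 and 6000 against D3 (7 and 4135). In siPRMT1 against D3 it gave 2 members and 3303 genes (2 and 3952), with Aldh1a7 in place of Aldh1a2. With the replicate block 1 member was called in siPRMT1 against D3 (2). The block gave 1 member and 15 genes in siSCR against D3, and 0 members and 14 genes in siPRMT1 against siPRMT8. Whether the number pairs arrays was not settled, and 4 of 12 arrays correlated best with their own number. Each array was matched against arrays that carried the 3 replicate numbers equally often. Numbers without any meaning would give the same count on average. Without siSCR replicate 1 and siPRMT1 replicate 2 together, 3 members and 5077 genes were called in siPRMT1 against siSCR, 5710 genes in siPRMT8 against siSCR, 6121 genes in siPRMT8 against D3 (4135), 152 genes in siSCR against D3, and 6 members and 1901 genes in siPRMT1 against siPRMT8. Without single arrays the members called ranged from 3 to 5 in siPRMT1 against siSCR, 4 to 5 in siPRMT8 against siSCR, 0 to 3 in siPRMT1 against D3, 4 to 8 in siPRMT8 against D3, 0 to 2 in siSCR against D3 and 0 to 1 in siPRMT1 against siPRMT8. Genes called ranged from 1317 to 3763, 1804 to 4773, 2643 to 4639, 2736 to 5327, 2 to 60 and 2 to 862 in the same order. Directions turned only for differences that had not passed: Aldh1a2 (-0.22 to 0.08) and Cyp26a1 (-0.14 to 0.17) in siPRMT1 against siSCR, Aldh1a7 in siPRMT8 against siSCR (-0.03 to 0.39), Aldh1a3 in siSCR against D3 (-0.03 to 0.06) and Rbp4 in siPRMT1 against siPRMT8 (-0.07 to 0.05). With both named arrays out, Aldh1a3 in siSCR against D3 lay at -0.02 and Rbp4 in siPRMT1 against siPRMT8 at 0.05. The mean of probe sets changed no member's call, since each has 1 probe set. Signal over background was not known, which limits what can be said of members at low signal.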
